A study of Mus musculus with 217 samples.

Results

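The presynaptic vesicle release machinery was followed in striatum and cortex of LacQ140 mice, an inducible model of Huntington's disease. It was taken as 38 listed genes among the 54532 genes of each count table. They were chosen by name and known role, with earlier results of these data known, and matched to gene identifiers. The genes were 3 synapsins, 2 synaptophysins, 3 SV2 proteins, 3 vesicular glutamate transporters, 6 synaptotagmins, 5 genes of the SNARE complex and its recycling, 3 complexins, 6 active zone scaffolds, 3 Munc13 priming factors, and Rab3a with 3 calcium effectors. All 38 were counted in every tissue and age. LacQ140 mice carry 1 copy of a knock-in Htt allele with an expanded CAG repeat and Lac operators in its promoter (Hdh(LacO-140Q/+)), and all mice, controls included, carry a beta-actin-LacIR transgene that expresses the Lac repressor ubiquitously, on C57BL/6. The repressor keeps the mutant allele (mHtt) low, and IPTG in the drinking water releases it. The groups were WT without IPTG, WT+IPTG, LacQ140 kept on IPTG from embryonic day 5 (mHtt expressed), LacQ140_A never given IPTG (mHtt lowered from conception), and LacQ140_2M and LacQ140_8M, which lost IPTG at an age of 2 and 8 months. Mice were 6 or 12 months old, and LacQ140_8M was studied at 12 months only. A group had 10 mice (5 of each sex), or 9 in the 12-month striatum of WT, LacQ140 and LacQ140_8M. Repression lowers the mutant allele and does not remove it, and the labels give the 6-month libraries as one batch and the 12-month libraries as another, so age and batch cannot be told apart.

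At a nerve terminal, synaptic vesicles are held in reserve by synapsins, filled with transmitter by vesicular transporters, and brought to the active zone by scaffolds such as bassoon, piccolo and RIM. Munc13 proteins prime them, complexins hold the assembled SNARE complex of syntaxin, SNAP25 and VAMP, and some synaptotagmins trigger fusion when calcium enters. Most neurons of the striatum are GABAergic spiny neurons. Glutamatergic terminals in the striatum come from cortical and thalamic neurons, whose cell bodies, and most of whose mRNA, lie outside it, so striatal RNA reports mainly on the release genes of local neurons.

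To show the start regions of members whose striatal level differed with mHtt, the bases just before the transcription start are given for Syp, Syn1 and Syt10, from RefSeq on GRCm38.p6, 5′ to 3′ on the strand of the gene. All lie upstream of the first exon. Capitals mark a full cyclic AMP response element (TGACGTCA) or a GC box (GGGCGG, here read on the other strand).
Syp, chrX:7638330-7638470, plus strand, 141 bases: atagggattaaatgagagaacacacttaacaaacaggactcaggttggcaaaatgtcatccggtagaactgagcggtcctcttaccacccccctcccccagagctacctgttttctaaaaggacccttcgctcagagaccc
Syn1, chrX:20921005-20921168, minus strand, 164 bases: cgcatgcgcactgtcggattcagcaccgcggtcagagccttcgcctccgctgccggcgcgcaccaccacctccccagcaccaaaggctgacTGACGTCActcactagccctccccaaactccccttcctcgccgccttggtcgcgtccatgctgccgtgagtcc
Syt10, chr15:89841861-89842110, minus strand, 250 bases: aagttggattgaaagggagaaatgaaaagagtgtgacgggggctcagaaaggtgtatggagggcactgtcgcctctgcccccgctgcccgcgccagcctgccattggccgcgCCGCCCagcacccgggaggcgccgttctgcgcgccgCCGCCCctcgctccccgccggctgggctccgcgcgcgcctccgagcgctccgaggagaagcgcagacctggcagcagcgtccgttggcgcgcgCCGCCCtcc
The Syp stretch had 49.6% G and C and held none of the motifs searched, the Syn1 stretch had 67.1% and 1 response element, and the Syt10 stretch had 72.0% and 3 GC boxes. A start window of 300 bases (250 before the start and 50 after) was found for 30 of the 38 members. Searched on both strands in all 32851 such mouse windows, TGACGTCA was in 1.79% and, among members, in Syn1. GGGCGG was in 35.66% of all windows and in at least 1 window of 24 of the 30 members, which have 42 windows in all, so the share of windows and the count of members are in different units. The E-box CACGTG was in 7.15% of all windows and in those of Nsf, Cplx3, Unc13b and Sv2b, and TATAAA was in 13.62% and in that of Sv2b. These matches describe the letters only.

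Library totals ran from 33292057 to 68038831 counts. Levels are given as CPM, the counts of a gene set to a common library total that TMM scaled within a tissue and age, and a gene is called where the adjusted p of edgeR's quasi-likelihood test over all genes is under 0.05 and the fold is at least 1.2 up or down. Counts of Htt, which hold both alleles, were lower in LacQ140_A than in WT in all 4 combinations of tissue and age, by 24.4% and 30.3% in 6- and 12-month striatum and 33.9% and 39.5% in cortex. LacQ140 was itself below WT+IPTG, by a called 24.1% in 12-month striatum and 22% in 6-month cortex. LacQ140_A was below LacQ140 in all 4 combinations (-13.8% and -15.8% in striatum, -13.0% and -28.8% in cortex) and called in none, with adjusted p = 0.075, 0.049, 0.42 and 0.19. The summed level of 7 spiny neuron markers was 3388 to 7712 CPM over the striatal libraries and 135 to 407 CPM over the cortical ones. In striatum these 7 markers were all lower in LacQ140 than in WT+IPTG at both ages, with median log2 fold changes of -0.39 and -0.82. In tissue RNA, fewer cells of a type and less RNA per cell cannot be told apart. The sum of 5 thalamic markers stood at 32.8 to 221 CPM in 6-month WT+IPTG striatum (median 69.2) against 32.1 to 64.1 in LacQ140 (median 40.3), and 4 of the 5 were called lower in LacQ140. The sum of 8 cortical markers stood at 27.3 to 50.3 CPM in 12-month WT+IPTG striatum and at 38.4 to 81.9 in LacQ140, with 3 of the 8 called higher. No marker had a mean of 0 in these groups. Striatal results are therefore also given without 14 libraries whose thalamic sum was over 2 times, or cortical sum over 1.5 times, the median of their age. Markers of glia also moved with mHtt in striatum. The sum of 4 oligodendrocyte markers was 8945 to 11156 CPM in LacQ140 and 11707 to 15181 in WT+IPTG at 6 months (3 of 4 called lower), and 7665 to 12673 against 10298 to 13855 at 12 months (2 of 4). The sum of 4 astrocyte markers was 810.2 to 948 against 957 to 1226 CPM at 6 months (1 of 4 called lower) and 675 to 785 against 703 to 901 at 12 months (none called). For 4 microglial markers it was 194 to 237 against 229 to 296 CPM (3 of 4) and 229 to 276 against 268 to 306 (1 of 4). The part of these cell types in the results below was not tested. Of the 14, 5 were 6-month WT+IPTG libraries. In the 12-month striatum 3 were LacQ140_A, 2 LacQ140_2M, and 1 each WT, WT+IPTG, LacQ140 and LacQ140_8M.

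Members spanned a wide range of levels. Per kilobase of exon, the highest mean in 6-month WT+IPTG striatum was that of Cplx2, the main complexin of forebrain neurons, at 297 ± 39.4 CPM per kb (SD, n = 10). Cplx1 followed at 241 ± 20.9, and then the SNARE genes Snap25 at 204 ± 24.2 and Vamp2 at 180.3 ± 15.3 and the vesicle GTPase Rab3a at 179 ± 12.3. Syt11 (136 ± 6.99), Syp (124 ± 6.63), Syt1, the fast calcium sensor (79.4 ± 6.17), and Sv2a (69.3 ± 4.82) came next. The lowest means were those of Doc2a at 1.05 ± 0.342, Syn3 at 0.744 ± 0.102 and Unc13b at 0.593 ± 0.0651 CPM per kb. Exon length took in every annotated exon of a gene, 2.8 kb for Doc2a, 12.28 kb for Syn3 and 22.75 kb for Unc13b. The order depends on the length used. Of the 37 neighbouring pairs in this order, 32 had ranges of mean ± SD that met. Differences between neighbours were not tested. In 6-month cortex the order opened with Snap25 at 333 ± 32.8 CPM per kb and closed with Slc17a8, the third vesicular glutamate transporter, at 0.402 ± 0.0753. At 12 months the highest and lowest were Cplx2 (382 ± 28.4) and Unc13b (0.547 ± 0.0632) in striatum, and Snap25 (481 ± 64.9) and Syn3 (0.181 ± 0.0384) in cortex.

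**Figure D1:**
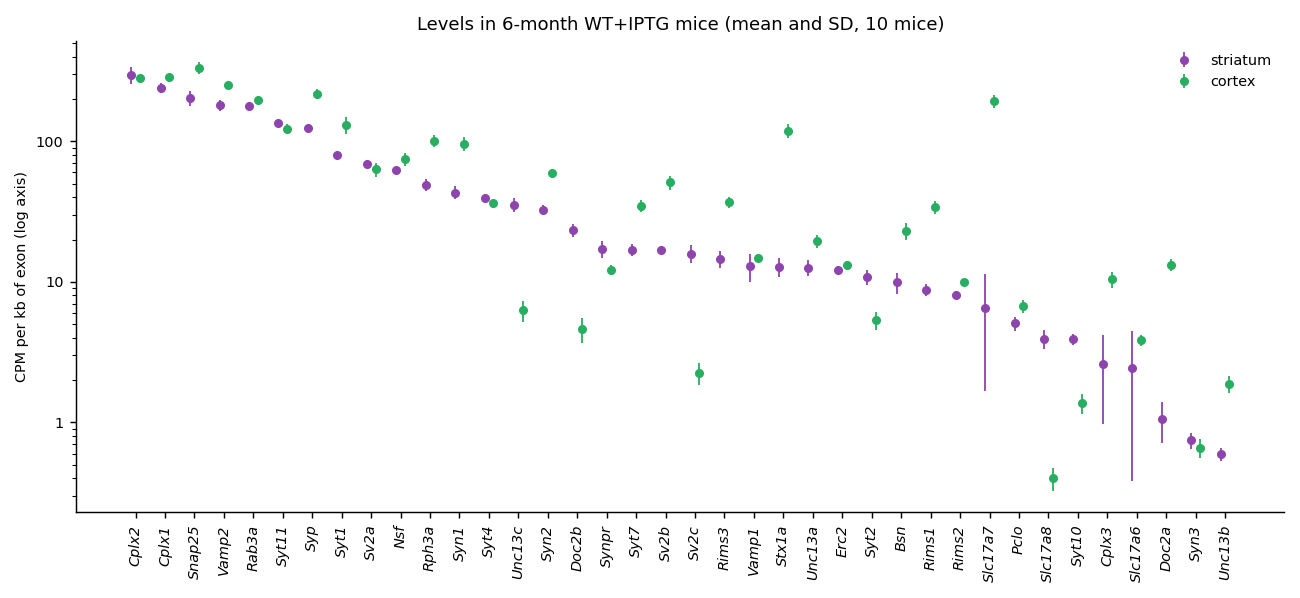
Mean and SD over 10 mice of the level of each of the 38 members in 6-month WT+IPTG striatum (purple) and cortex (green), in CPM per kb of exon on a log axis, ordered by the striatal mean. Striatal means run from 297 CPM per kb for Cplx2 to 0.593 for Unc13b, and the widest striatal bars are those of Slc17a7, Slc17a6 and Cplx3.

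The comparison of LacQ140 with WT+IPTG, both on IPTG, asks what expression of the mutant allele does to these genes. In the striatum the module did not move as a block. Syp was called higher at both ages. At 12 months Syn1, Unc13b and Doc2a were also called higher, and Synpr, Syt2, Syt10, Bsn and Unc13c lower. At 6 months Syn3 was called higher and Cplx3 and Slc17a6 lower, and most members, the core SNARE genes included, were not called at either age. At 6 months 4 of 38 members were called, 2 higher and 2 lower, where 7.93% of all genes tested were called (3.97% higher and 3.96% lower, or 15.8% among genes kept by a filter on low counts). Without the libraries high in neighbouring-tissue markers 1 member, Syp, was called at 6 months, and the share of all genes in that fit is not given here. At 12 months 9 of 38 were called, 4 higher and 5 lower, where 9.44% of all genes were called (4.58% higher and 4.86% lower, 18.3% after the filter). The median log2 fold change of the members was 0.05 and -0.03, against 0.0 over all genes at both ages. The members' shares at 6 and 12 months are read against those backgrounds, and nothing particular to the module follows from them.

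**Figure D2:**
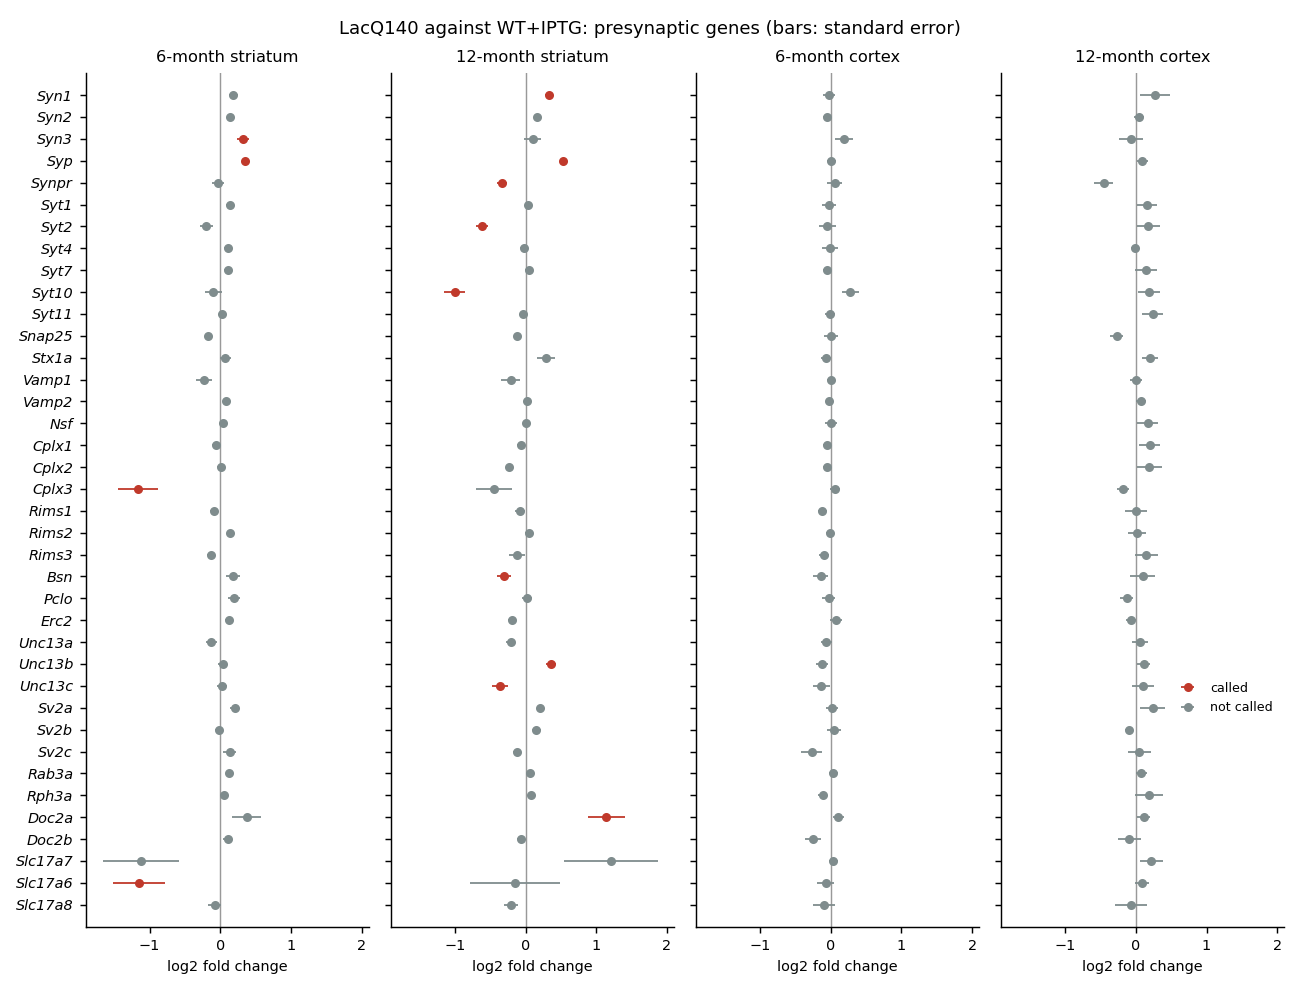
Log2 fold change of each member in LacQ140 against WT+IPTG in 4 panels for tissue and age, with bars of 1 standard error. Red points are called, and there are 4 in 6-month striatum, 9 in 12-month striatum and none in cortex at either age.

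Synaptophysin, Syp, an abundant protein of the vesicle membrane, was the member with the smallest adjusted p at both ages. In 6-month striatum its level was 599 to 699.5 CPM in WT+IPTG (median 644) and 729 to 876 in LacQ140 (median 835). The groups did not overlap, and the log2 fold change was 0.35 ± 0.0463 (SE), a rise of 27.3% (adjusted p = 9e-08). At 12 months the values were 646 to 790.2 CPM in WT+IPTG (median 723) and 849.5 to 1168 in LacQ140 (median 1055). Again no library of one group fell within the other, and the rise was 44.2%, 0.53 ± 0.0496 on the log2 scale (adjusted p = 1.8e-13). WT mice without IPTG lay where WT+IPTG did, at 551 to 736 CPM and 639 to 809.7 CPM. Without the libraries high in neighbouring-tissue markers the 6-month fold change was 0.37 (adjusted p = 1.4e-05). Exons of Syp share 16.8% of their bases with an antisense gene, Gm14703, that had few counts.

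Its relative synaptoporin, Synpr, did not follow it. Synpr was 140.1 to 211 CPM in 6-month WT+IPTG and 141 to 183 in LacQ140, a log2 fold change of -0.04 ± 0.0851 (adjusted p = 0.89). At 12 months it was 86.6 to 117 CPM in WT+IPTG (median 104) and 70.9 to 104 in LacQ140 (median 81.4). There 7 of 9 LacQ140 mice lay below every WT+IPTG mouse, and Synpr fell by 0.33 on the log2 scale (SE 0.0701, adjusted p = 0.00023).

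Synapsins coat vesicles and tether them in the reserve pool. Syn1 was 228 to 295 CPM in 12-month WT+IPTG striatum (median 264) and 267 to 396 in LacQ140 (median 329), with 8 of 9 LacQ140 mice above the highest control. The log2 fold change was 0.33 ± 0.0555, a rise of 25.9% (adjusted p = 4.2e-06). At 6 months it was 123 to 160.4 against 137 to 181 CPM, with a log2 fold change of 0.18 ± 0.0631 (adjusted p = 0.055). Syn2 passed the adjusted p at 12 months (0.16 ± 0.0474, adjusted p = 0.014) and stayed under the 1.2-fold bound. Syn3 was called at 6 months, at 7.43 to 11.1 CPM in WT+IPTG (median 9.13) and 9.25 to 12.8 in LacQ140 (median 11.5). Its log2 fold change was 0.32 ± 0.0825 (adjusted p = 0.0041). In 12-month striatum Syn3 gave 0.1 ± 0.12 (adjusted p = 0.68). The Syn3 call was lost without the 5 WT+IPTG libraries high in thalamic markers (0.20, adjusted p = 0.29). Its exons share 14.1% of their bases with Timp3 on the other strand, which had more counts, and the strand setting of the counting is not given in the sources used here.

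The SV2 proteins are vesicle glycoproteins. Sv2a, the most widely expressed, passed the adjusted p at both ages under the 1.2-fold bound. It was 398 to 464 CPM in 12-month WT+IPTG and 469 to 512 in LacQ140, groups that did not overlap, with a log2 fold change of 0.21 ± 0.0359 (adjusted p = 5.1e-06). At 6 months the fold change was 0.20 ± 0.0596 (adjusted p = 0.016, and 0.27 without the libraries high in neighbouring-tissue markers). Sv2b gave -0.02 and 0.15 at 6 and 12 months (adjusted p = 0.9 and 0.12), and Sv2c, the form enriched in the basal ganglia, gave 0.13 and -0.12 (adjusted p = 0.43 and 0.16).

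Vesicular glutamate transporters mark neurons that release glutamate. Slc17a6, the thalamic form, was 2.57 to 37.2 CPM in 6-month WT+IPTG striatum (median 11.2) and 2.47 to 12.6 in LacQ140 (median 5.82). It was called lower (-1.15 ± 0.362, adjusted p = 0.025), although 9 of the 10 LacQ140 values lay within the WT+IPTG range. Without the 5 WT+IPTG libraries high in thalamic markers, the remaining WT+IPTG values were 2.57 to 9.9 CPM, the estimate turned to 0.30 and the adjusted p was 0.81. Slc17a7, the cortical form, ranged from 2.81 to 73.3 CPM in WT+IPTG and from 2.75 to 63.5 in LacQ140 at 6 months (-1.12 ± 0.535, adjusted p = 0.2). At 12 months a single LacQ140 library stood at 286 CPM with a group median of 5.7 (1.21 ± 0.663, adjusted p = 0.28), and without the libraries high in neighbouring-tissue markers the estimate was -1.01 (adjusted p = 0.36). Slc17a8, found in cholinergic interneurons of the striatum, gave -0.08 and -0.21 (adjusted p = 0.67 and 0.2).

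**Figure D3:**
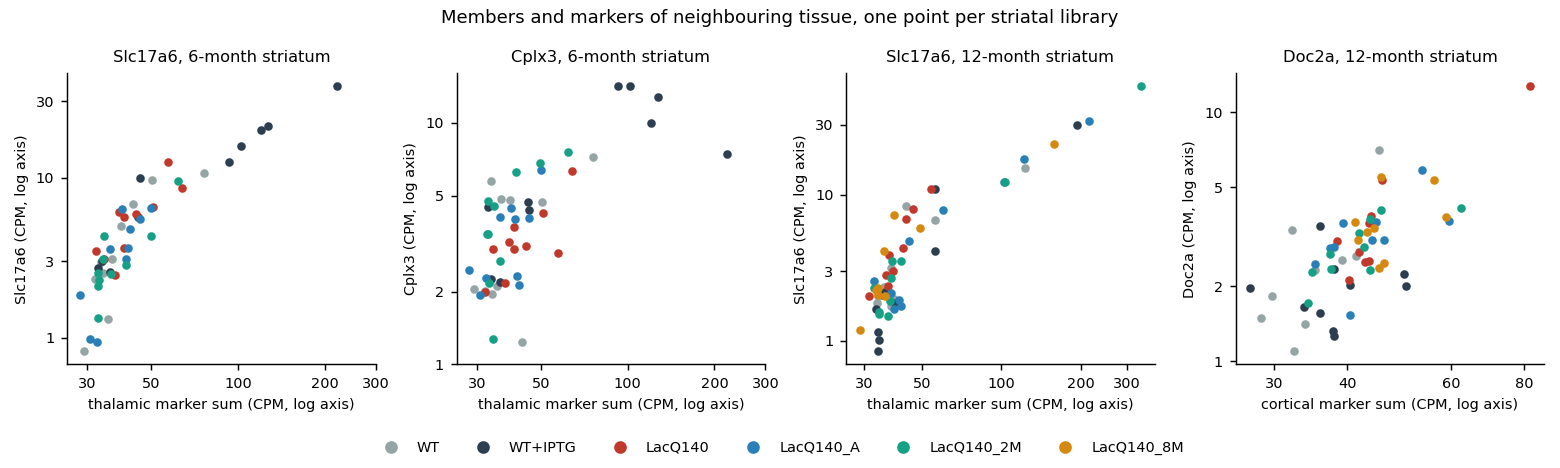
Level of Slc17a6, Cplx3 and Doc2a in each striatal library (y) against the summed thalamic or cortical markers of the same library (x), in CPM on log axes, with colours for the groups. The highest Slc17a6 values, up to 37.2 CPM at 6 months and 54.9 at 12 months, and the highest Doc2a value, 12.7, stand in the libraries with the highest sum on the axis of their panel, while the highest Cplx3 values, 14.2, stand at thalamic sums below the highest.

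Complexins clamp and promote SNARE-driven fusion. Cplx3, a form of sensory and deep cortical neurons, was 2.2 to 14.2 CPM in 6-month WT+IPTG (median 6.06) and 1.99 to 6.34 in LacQ140 (median 3.04). It was called lower (-1.16 ± 0.285, adjusted p = 0.0027), and without the 5 WT+IPTG libraries named above the estimate was -0.07. At 12 months it gave -0.45 ± 0.256 (adjusted p = 0.31). Cplx2 passed the adjusted p at 12 months under the bound (-0.24 ± 0.0423, adjusted p = 1.4e-05), with 8 of 9 LacQ140 mice below every WT+IPTG mouse, and gave 0.01 at 6 months. Cplx1 gave -0.06 and -0.07 (adjusted p = 0.66 and 0.5).

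Some synaptotagmins are calcium sensors of release. Syt2, a fast sensor, did not pass at 6 months, at 67.9 to 97.1 CPM in WT+IPTG and 52.6 to 90 in LacQ140 (-0.20 ± 0.0911, adjusted p = 0.18). At 12 months it was 101 to 136 CPM in WT+IPTG (median 119.7) and 62.0 to 96.9 in LacQ140 (median 72.5). No 12-month LacQ140 mouse reached the lowest control, and Syt2 fell by 0.61 on the log2 scale (SE 0.0827), a change of -34.6% (adjusted p = 2.6e-08). Syt10, which controls secretion of IGF-1 in some neurons, was 4.88 to 11.4 CPM (median 7.88) in 12-month WT+IPTG and 2.51 to 5.12 in LacQ140 (median 3.85). That is a log2 fold change of -1.0 ± 0.149, with 7 of 9 LacQ140 mice below every control (adjusted p = 2.6e-07). In 6-month striatum Syt10 was 6.31 to 8.28 against 4.84 to 8.39 CPM (-0.10 ± 0.116, adjusted p = 0.68). Both calls stood without the libraries high in neighbouring-tissue markers. Syt1, Syt4, Syt7 and Syt11 did not pass at either age, with log2 fold changes between 0.02 and 0.13 at 6 months and between -0.03 and 0.05 at 12 months.

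The calcium effectors of the Doc2 family and the partners of Rab3 did not pass at 6 months. Doc2a, a sensor for spontaneous and delayed release, was 1.27 to 3.51 CPM in 12-month WT+IPTG (median 1.99) and 2.13 to 12.7 in LacQ140 (median 3.04). It was called higher (1.14 ± 0.259, adjusted p = 0.00072). The library at 12.7 CPM had the highest cortical marker sum, 81.9 CPM, and without the libraries high in such markers the fold change was 0.72 (adjusted p = 0.032). Of the exon bases of Doc2a, 39.4% are shared with Ino80e on the other strand. Ino80e had 423195 counts over all libraries and Doc2a 187305, and the strand setting of the counting is not given. Rab3a, the GTPase of docked vesicles, gave 0.12 and 0.07 (adjusted p = 0.095 and 0.43), its effector Rph3a 0.05 and 0.08 (adjusted p = 0.65 and 0.4), and Doc2b 0.10 and -0.07 (adjusted p = 0.37 and 0.44).

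No SNARE gene was called at either age. Snap25 passed the adjusted p at 6 months (-0.17 ± 0.0469, a change of -11.3%, adjusted p = 0.0078, and 0.31 without the libraries high in neighbouring-tissue markers) and not at 12 (-0.12 ± 0.0486, adjusted p = 0.1). Stx1a, syntaxin 1A, gave 0.07 and 0.29 (adjusted p = 0.69 and 0.11), and Vamp1 -0.23 and -0.21 (adjusted p = 0.22 and 0.4). Vamp2, the main vesicle SNARE of forebrain, gave 0.08 and 0.02 with 95% intervals of -0.01 to 0.17 and -0.07 to 0.1. For Nsf, the ATPase that takes used complexes apart, the intervals were -0.04 to 0.12 and -0.07 to 0.09.

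At the active zone, Bsn (bassoon) was 191 to 309 CPM in 12-month WT+IPTG (median 264) and 175 to 276 in LacQ140 (median 201). It was called lower (-0.30 ± 0.101, adjusted p = 0.033), with 8 of 9 LacQ140 mice below the control median. With the slope of level on transcript length as a covariate it fell under the fold bound (-0.25, adjusted p = 0.0048). At 6 months its estimate was above 0 (0.18 ± 0.099, adjusted p = 0.28). Its partner Pclo gave 0.19 and 0.02 (adjusted p = 0.16 and 1.0), and Erc2 passed under the bound at 12 months (-0.19 ± 0.0584, adjusted p = 0.02). Rims1, Rims2 and Rims3, which link vesicles to calcium channels, did not pass, with values from -0.13 to 0.14 at 6 months and from -0.12 to 0.05 at 12.

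Munc13 genes split at 12 months. Unc13b, a form at low level here, was 10.2 to 14.6 CPM in WT+IPTG (median 12.4) and 14.6 to 20.7 in LacQ140 (median 15). Its log2 fold change was 0.36 ± 0.0761, with 8 of 9 LacQ140 mice above the highest control (adjusted p = 0.00023). Unc13c ran the other way, at 182 to 332 CPM (median 273) against 186 to 267 (median 208). It was called lower (-0.36 ± 0.115, adjusted p = 0.021), all 9 LacQ140 mice lying below the control median, and without the libraries high in neighbouring-tissue markers it was -0.33 (adjusted p = 0.067). Unc13a, the main form of excitatory forebrain neurons, passed under the bound (-0.21 ± 0.0643, adjusted p = 0.015). At 6 months the values were 10.5 to 15.8 against 11.9 to 15.8 CPM for Unc13b and 269 to 399 against 260.2 to 398 CPM for Unc13c, and none of the 3 passed.

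**Figure D4:**
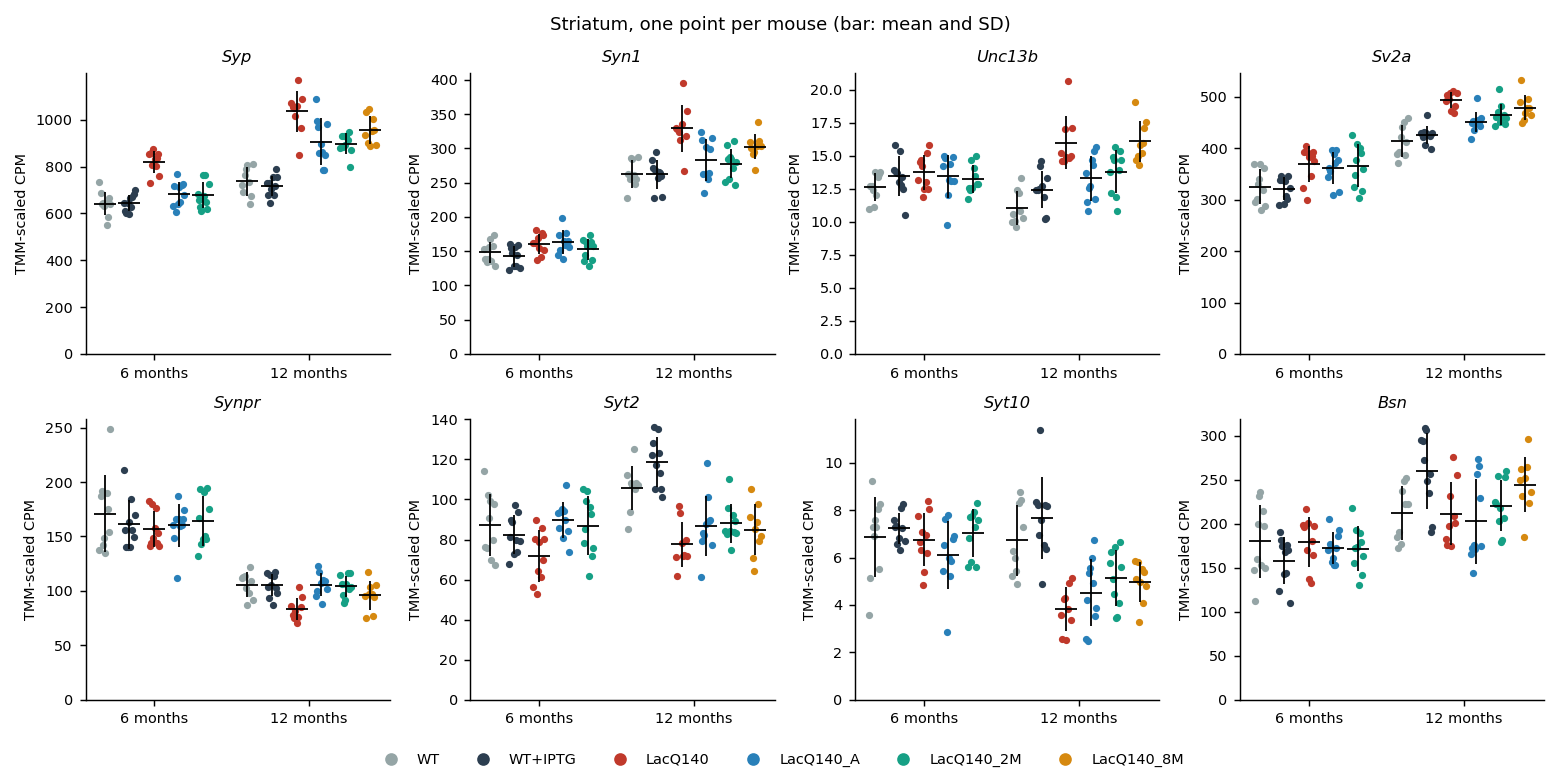
TMM-scaled CPM of 8 members in every striatal library at 6 and 12 months, 1 point a mouse coloured by group, with the mean and SD as bars. Syp is higher and Syt2 lower in 12-month LacQ140 than in WT+IPTG with no overlap, and Synpr in LacQ140_A and LacQ140_2M lies near the control level.

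In the cortex no member was called at either age, where 0.881% of all genes were called at 6 months and 0.0899% at 12. At an unadjusted p under 0.05 there were 2 members at 6 months and 3 at 12, and DESeq2 called none. Here and below, the shares of all genes are shares called, so they are no background for counts at an unadjusted p. At 12 months a fit of these 2 groups alone called 2 members (1.41% of all genes), and one with the slope of level on transcript length as a covariate called 1 (0.388% of all genes). Cortical Syp, at 1017 to 1310.1 CPM in 6-month WT+IPTG and 946 to 1331 in LacQ140, gave 0.01 with a 95% interval of -0.1 to 0.13. At 12 months its interval was -0.06 to 0.24. The largest 12-month estimate was that of Synpr, 217 to 409 CPM in WT+IPTG and 191 to 255 in LacQ140 (-0.45 ± 0.135, adjusted p = 0.24).

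Whether the effect of mHtt differed between the tissues was tested as an interaction. At 6 months 2 members were called (0.991% of all genes), Syp with a difference of 0.32 ± 0.0695 on the log2 scale (adjusted p = 0.0084) and Cplx3 with -1.23 ± 0.294 (adjusted p = 0.02), the latter being -0.14 without the libraries high in neighbouring-tissue markers. At 12 months 5 members were called (3.89% of all genes). Syp stood at 0.42 ± 0.0863 (adjusted p = 0.00077), Syt2 at -0.81 ± 0.132 (adjusted p = 1.7e-05) and Syt10 at -1.21 ± 0.197 (adjusted p = 1.6e-05). Cplx2 gave -0.44 ± 0.135 (adjusted p = 0.045), which did not pass with DESeq2 (adjusted p = 0.088). Doc2a gave 1.01 ± 0.248 (adjusted p = 0.0071), and 0.59 (adjusted p = 0.0505) without those libraries.

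The difference of the mHtt effect between 12 and 6 months was called for 4 members in striatum (1.77% of all genes), all toward lower values at 12 months. It was -0.91 ± 0.161 for Syt10 (adjusted p = 0.00045), -0.42 ± 0.118 for Syt2 (adjusted p = 0.0498), -0.48 ± 0.137 for Bsn (adjusted p = 0.048) and -0.30 ± 0.0818 for Erc2 (adjusted p = 0.037). Only Syt10 of these was called with the replicate block (adjusted p = 0.00053) and without the libraries high in neighbouring-tissue markers (adjusted p = 0.015). The estimates of Syt2, Bsn and Erc2 were -0.40, -0.45 and -0.30 with the block and -0.34, -0.43 and -0.27 without those libraries. For Syp the difference was 0.18 ± 0.0629 (adjusted p = 0.14), so its larger 12-month rise was not shown to differ from that at 6 months. In cortex no member was called (0.0115% of all genes), with 7 at an unadjusted p under 0.05 and none by DESeq2.

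IPTG itself was examined in WT mice. In 6-month striatum 1 member was called (0.584% of all genes), Slc17a6, at 0.822 to 10.7 CPM in WT and 2.57 to 37.2 in WT+IPTG (1.52 ± 0.372, adjusted p = 0.028). With the replicate block the adjusted p was 0.12, with DESeq2 it was 0.056, and without the libraries high in thalamic markers the estimate was 0.07. No member was called in 12-month striatum (0.218% of all genes), 6-month cortex (0.609%) or 12-month cortex (0.0%). In these the number of members at an unadjusted p under 0.05 was 8, 5 and 1, and DESeq2 called none. Syp gave 0.01 and -0.04 in 6- and 12-month striatum, with 95% intervals of -0.09 to 0.1 and -0.13 to 0.06.

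Lowering of mHtt was compared with LacQ140, the same libraries that entered the comparison with WT+IPTG, so the values below are set beside those above and their opposite signs are no independent support. With lowering from conception, LacQ140_A, 2 members were called in 6-month striatum (1.88% of all genes). Syt2 was 73.6 to 107 CPM in LacQ140_A against 52.6 to 90 in LacQ140 (0.32 ± 0.0912, adjusted p = 0.04, and 0.078 with the replicate block), and Unc13a gave 0.30 ± 0.0778 (adjusted p = 0.018). Syp, at 605 to 767 CPM against 729 to 876, passed the adjusted p just under the bound (-0.26 ± 0.0462, adjusted p = 0.00012). In 12-month striatum 1 member was called (0.91% of all genes), Synpr, at 87.6 to 123 CPM against 70.9 to 104 (0.34 ± 0.0701, adjusted p = 0.0018). Under the bound were Syn1 (-0.22, adjusted p = 0.022), Syp (-0.19, adjusted p = 0.027) and Sv2a (-0.13, adjusted p = 0.047).

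Withdrawal of IPTG at 2 months gave 2 calls in 6-month striatum (1.26% of all genes). Syp was 612 to 766 CPM in LacQ140_2M (-0.28 ± 0.0462, adjusted p = 0.00011), and under the fold bound, so not called, with the length covariate (-0.25, adjusted p = 3.8e-05). Doc2a was 1.1 to 2.72 CPM against 2.33 to 6.49 in LacQ140 (-0.84 ± 0.213, adjusted p = 0.022). In 12-month striatum Synpr alone was called (0.608% of all genes), at 88.9 to 116 CPM (0.32 ± 0.0701, adjusted p = 0.0056). Syn1 (-0.25, adjusted p = 0.0088) and Syp (-0.21, adjusted p = 0.018) passed under the bound. Without the libraries high in neighbouring-tissue markers, Syn1 and Syp passed neither for LacQ140_A (adjusted p = 0.089 and 0.19) nor for LacQ140_2M (adjusted p = 0.1 and 0.067). Syt2, at 74.6 to 110.3 CPM, and Syt10, at 3.44 to 6.65 CPM, did not pass (0.18 ± 0.0824, adjusted p = 0.52, and 0.43 ± 0.153, adjusted p = 0.27).

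Withdrawal at 8 months gave no call in 12-month striatum (0.00565% of all genes called), and DESeq2 called none. At an unadjusted p under 0.05 there were 6 members, and the share of all genes at that threshold is not given here. Counts of Htt there had a mean of 111 CPM in both groups, with an interval of the log2 fold change from -0.14 to 0.14. In 12-month cortex the mean Htt level was 18.0 CPM in LacQ140_8M and 23.9 in LacQ140. That is a change of -24.6%, with an interval of the log2 fold change from -0.66 to -0.15, and it was not called. With the length slope as a covariate it was -0.40 (adjusted p = 0.00039). In LacQ140_8M striatum Syp was 889.6 to 1045 CPM (-0.12 ± 0.0509 against LacQ140), Syn1 269 to 338, Synpr 75.5 to 117, Syt2 64.4 to 105, Syt10 3.28 to 5.85 and Unc13b 14.3 to 19.1 CPM. The 95% interval for Unc13b, -0.14 to 0.16, was centred near 0, and that for Synpr was 0.06 to 0.34 with an adjusted p of 0.86. Differences between the lowering groups were not tested.

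No member was called in cortex for any lowering group. The shares of all genes called were 0.00834% and 0.0435% for LacQ140_A at 6 and 12 months, 0.0% and 0.0841% for LacQ140_2M, and 0.0% for LacQ140_8M. At an unadjusted p under 0.05 there were 4 and 9, 7 and 3, and 0 members in the same order, and DESeq2 called none. A fit of LacQ140_A and LacQ140 alone called 11 members in 12-month cortex (6.06% of all genes). There the slope of level on transcript length was -0.08 to 0.12 in LacQ140_A (median 0.02). In LacQ140 it was 0.0 to 0.21 (median 0.09). That fit had no term for the slope, and the part of the slope in the 11 calls was not tested.

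LacQ140_A and WT, neither given IPTG, share no library with the comparison of LacQ140 with WT+IPTG. In 6-month striatum no member was called (0.91% of all genes, 6 members at an unadjusted p under 0.05, none by DESeq2). In 12-month striatum 4 were called (3.15% of all genes). Syp was 784 to 1089 CPM in LacQ140_A (median 879.9) and 639 to 809.7 in WT (median 736), with 8 of 10 LacQ140_A mice above every WT mouse (0.30 ± 0.0498, adjusted p = 1.3e-05). Unc13b was 10.8 to 15.7 against 9.58 to 13.3 CPM (0.27 ± 0.0778, adjusted p = 0.022). Syt2 was 61.1 to 118 against 85.2 to 125 CPM (-0.28 ± 0.0821, adjusted p = 0.027), and Syt10 was 2.49 to 6.74 against 4.87 to 8.75 CPM (-0.58 ± 0.147, adjusted p = 0.0079). Without the libraries high in neighbouring-tissue markers Syp and Syt2 stood, while Unc13b (0.23, adjusted p = 0.1) and Syt10 (-0.55, adjusted p = 0.051) did not pass, the estimate of Unc13b being also under the 1.2-fold bound. Under the bound, Cplx2 passed the adjusted p with no overlap of the groups (-0.22 ± 0.0422, adjusted p = 0.00019), and Erc2 (-0.26), Unc13a (-0.25) and Sv2a (0.13) also passed the adjusted p. Synpr, at 87.6 to 123 CPM in LacQ140_A and 86.7 to 122 in WT, gave 0.003 with an interval of -0.13 to 0.14. In cortex no member was called (0.425% of all genes at 6 months and 0.0174% at 12), with 7 and 0 at an unadjusted p under 0.05 and none by DESeq2.

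A wider list of 49 presynaptic genes outside the module was read from the same fits. In LacQ140 against WT+IPTG 2 of 49 were called in 6-month striatum (7.93% of all genes), both synaptotagmins. Syt5 was higher (0.37 ± 0.064, adjusted p = 2.4e-05) and Syt9 lower (-0.50 ± 0.0763, adjusted p = 2.4e-06). At 12 months 5 of 49 were called (9.44% of all genes), and 3 without the libraries high in neighbouring-tissue markers, where Syt5 and Cadps2 were not. Syt5 (0.29) and Cadps2, a priming factor of dense-core vesicles (0.53), were higher, and Syt9 (-0.54), Syt12 (-0.41, groups without overlap) and the scaffold gene Lin7b (-0.31) were lower. None of the 11 genes of the vesicle membrane and none of the 9 of vesicle recycling was called at either age. Syt9 was higher in 6-month striatum of LacQ140_A (0.38 ± 0.0765, adjusted p = 0.00084) and LacQ140_2M (0.32 ± 0.0764, adjusted p = 0.011) than of LacQ140. The median log2 fold change of the list was 0.06 at 6 months and -0.005 at 12.

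The levels in the 2 tissues were compared in WT+IPTG mice, where the same mice gave both. At 6 months 27 members were called, 7 higher in striatum and 20 lower (32.4% of all genes, 16.3% higher and 16.1% lower). At 12 months 32 were called, 20 higher and 12 lower (55.1% of all genes, 27.1% higher and 28.0% lower). The direction was the same at both ages for 16 members. Higher in striatum were Sv2c (2.82 and 5.75 on the log2 scale at 6 and 12 months), Slc17a8 (3.29 and 4.04), Unc13c (2.50 and 2.90), Doc2b (2.33 and 3.99), Syt10 (1.51 and 1.83) and Syt2 (1.02 and 3.21). Lower in striatum were Slc17a7 (-4.89 and -5.30), Doc2a (-3.65 and -4.18), Stx1a (-3.22 and -2.97), Cplx3 (-2.01 and -3.47), Rims1, Unc13b, Sv2b, Syn2, Syp and Snap25. For 8 members, Syn1, Synpr, Syt1, Syt7, Rims2, Bsn, Pclo and Unc13a, both ages were called in opposite directions, as for Bsn at -1.22 and 2.17. Syt4, Vamp1 and Rab3a were called at neither age in this fit. With the mouse as a block, Slc17a6, at -0.68 (adjusted p = 0.09) in the fit without it, was also called at 6 months (-1.04, adjusted p = 0.011). Leaving out the striatal libraries high in neighbouring-tissue markers, 5 of the 10 at 6 months, gave 31 calls at 6 months and 32 at 12. The shares of all genes called in these fits are not given here. Slc17a6 was then -2.12 at 6 months (adjusted p = 8.9e-09) and -2.33 at 12, from -1.32. At 6 months Vamp1 went from -0.20 to -0.50 (adjusted p = 1.2e-07), and Syn3 (0.30, adjusted p = 0.021) and Cplx1 (-0.28, adjusted p = 0.00073) were called too. Cplx3 was -3.10 at 6 months without these libraries, nearer to its 12-month value of -3.47 than the -2.01 given above.

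**Figure D5:**
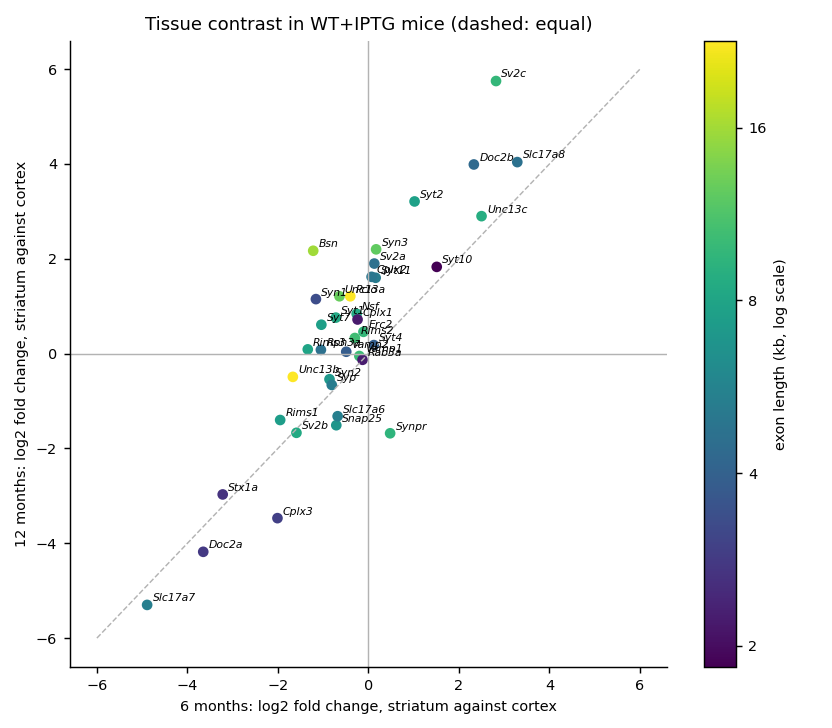
Log2 fold change of striatum against cortex in WT+IPTG mice at 6 months (x) and 12 months (y), 1 point a member, coloured by exon length in kb, with a dashed line of equality. Bsn at -1.22 and 2.17 and Synpr at 0.48 and -1.68 lie in quadrants of opposite sign, Slc17a7 is lowest at both ages, and Sv2c is highest at 12 months.

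These 12-month values moved with a property of the libraries. The slope of log2 CPM on log2 transcript length had a median of 0.06 in 12-month cortex, against 0.44 in 6-month cortex and 0.46 and 0.53 in 6- and 12-month striatum. With that slope as a covariate, 20 members were called at 12 months, and the share of all genes called in that fit is not given here. The estimates of 18 members changed sign, 14 of them among the 32 called without it, Bsn to -1.28 and Syn1 to -1.86 among these. Of the other 4, Syt4, Vamp2, Rims3 and Rph3a, Rims3 (-2.74) and Rph3a (-3.37) were called only with it. Of the 16 with the same direction at both ages, 6 lost the 12-month call with the covariate. These were Unc13c (-0.25 ± 0.66), Syt10 (1.17 ± 0.825), Slc17a8 (1.91 ± 0.715), Cplx3 (-2.57 ± 0.892), Snap25 (-0.80 ± 0.318) and Unc13b (-1.07 ± 0.432). The other 10 kept call and direction, such as Sv2c at 3.99 ± 0.472, Doc2b at 2.47 ± 0.506, Syt2 at 1.45 ± 0.448, Doc2a at -5.16 ± 0.623 and Stx1a at -3.85 ± 0.421. The slope is tied to tissue at 12 months, so its part cannot be told apart from that of tissue there.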

How the data were processed

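Total RNA of striatum and cortex (107 and 110 libraries) was sequenced by the authors, who deposited expected counts, the estimated reads per gene, in one table per age without normalization; 32.5% of nonzero values were not whole. The submitters' processing notes name GRCm38; the aligner, the counting program and its strand setting are not given in the sources used here. Of 54532 gene identifiers 54495 matched GENCODE vM21. These estimates, rounded to whole numbers, went into edgeR 4.0.16 (TMM, glmQLFit with legacy off, quasi-likelihood F-test) in R 4.3.3, on genes with at least 1 count, with group as the only term and all groups of a tissue and age in one fit. Tissue contrasts used WT+IPTG mice, and interactions WT+IPTG and LacQ140. A gene was called at a Benjamini-Hochberg adjusted p under 0.05, over all genes tested, together with a fold of at least 1.2 up or down; intervals are 95% intervals and SE comes from the F statistic. Depth was 33292057 to 68038831 counts a library. DESeq2 1.42.0 was an alternative, besides other filters, size factors, covariates and a replicate block; the models were tested on simulated data. Members and lists were chosen with earlier results of these data known. All 38 members are named, with ranges for those called in LacQ140 against WT+IPTG; of the other list, those called in striatum, up to 4 a subgroup. Same-numbered mice of a sex did not deviate together (mean residual correlation 0.029 to 0.047, against 0.023 to 0.063 for other pairs). Tissues of the same mouse did (0.129 and 0.104, against 0.05 and 0.055), and the mouse block added 1 call in the tissue contrast, Slc17a6 at 6 months. Libraries were grouped by their labels, and separate mice are taken as replicates. Promoters came from RefSeq windows, found for 30 members.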

Additional observations from a re-analysis of the deposited data

Results flagged for a closer look

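Over 132 combinations in striatum of a group and 1 of the 12 members called in LacQ140 against WT+IPTG, 21 held a library far from the rest. The bound would flag about 1 in 20 groups if values were normal and independent. That was not tested, and the members share the same libraries. Slc17a6 stood apart at its high end in LacQ140_2M at 6 months (9.57 CPM) and at 12 months in WT (15.3), WT+IPTG (29.7), LacQ140_A (32.1), LacQ140_2M (54.9) and LacQ140_8M (22.3); the 5 libraries at 12 months were all among those high in thalamic markers. Doc2a did so in 6-month WT (5.98 CPM) and in 12-month WT (7.06), WT+IPTG (3.51), LacQ140 (12.7) and LacQ140_A (5.86). The LacQ140 library at 12.7 CPM for Doc2a was also apart for Unc13b (20.7 CPM). Other high values were Cplx3 in 6-month LacQ140 (6.34 CPM), Syt10 in 12-month WT+IPTG (11.4), Unc13c in 6-month WT+IPTG (399) and Synpr in 6-month WT (249). Low values were Syt10 (2.85 CPM) and Synpr (112) in the same 6-month LacQ140_A mouse, Syn3 in 6-month LacQ140_2M (7.55), Syp in 12-month LacQ140_2M (800.1) and Unc13c in 12-month WT+IPTG (182).

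The effect of mHtt differed between striatum and cortex by an interaction test for Syp (0.32 on the log2 scale) and Cplx3 (-1.23) at 6 months and for Syp (0.42), Syt2 (-0.81), Syt10 (-1.21), Cplx2 (-0.44) and Doc2a (1.01) at 12 months. Without the libraries high in neighbouring-tissue markers Cplx3 gave -0.14 and Doc2a 0.59 (adjusted p = 0.0505), and Cplx2 did not pass with DESeq2 (adjusted p = 0.088), with the filter on low counts (0.067) or with the length slope (0.11). Between 12 and 6 months in striatum it differed for Syt2 (-0.42), Syt10 (-0.91), Bsn (-0.48) and Erc2 (-0.30). With the replicate block the adjusted p of Syt2, Bsn and Erc2 was 0.11, 0.13 and 0.055, and without those libraries 0.43, 0.26 and 0.26. Of the 4, Syt10 alone was called under both. The estimates of the other genes in the same order were -0.40, -0.45 and -0.30 with the block and -0.34, -0.43 and -0.27 without those libraries.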

How the results depend on the processing

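Main counts of called members were 4 and 9 for LacQ140 against WT+IPTG in 6- and 12-month striatum. For the alternative counts below, the share of all genes called is not given except where it is printed. Leaving out the striatal libraries high in neighbouring-tissue markers, an alternative chosen after seeing the data, gave 1 at 6 months, where Slc17a6 turned to 0.30. It also gave 0 for IPTG in 6-month striatum (from 1), 2 for LacQ140_A against WT in 12-month striatum (from 4), 1 for the tissue interaction at 6 months (from 2) and 1 for the age interaction in striatum (from 4), and, for the wider list, 3 at 12 months (from 5) and 1 for LacQ140_A against WT (from 0). It leaves fewer samples. Without the fold change bound, members rose from 9 to 14 at 12 months, from 1 to 4 for LacQ140_A and from 1 to 3 for LacQ140_2M against LacQ140, and from 4 to 8 for LacQ140_A against WT, all in 12-month striatum. The wider list rose from 2 to 11 and from 5 to 14 for mHtt, from 1 to 2 and from 0 to 3 for LacQ140_A, from 0 to 1 for LacQ140_2M and from 0 to 2 for LacQ140_A against WT. The replicate block gave 0 in place of 1 for IPTG in 6-month striatum and 1 in place of 4 for the age interaction, and moved no other count of calls by over 1.5 times (it added Slc17a6 to the 6-month tissue contrast); sex as a covariate gave 2 for the latter. DESeq2 and the fit of 2 groups gave 0 for IPTG in 6-month striatum. Fits of 2 groups also gave 2 in 12-month cortex for mHtt and 11 for LacQ140_A (from 0 each, beside 1.41% and 6.06% of all genes), and 2 of the wider list for LacQ140_2M at 6 months (from 1). The length slope gave 1 in 12-month cortex for mHtt, 2 for IPTG and 1 for LacQ140_2M (from 2) in 6-month striatum. For the tissue contrast at 12 months it gave 20 in place of 32 and reversed Syn1 (-1.86), Syn3 (-0.02), Syt1 (-1.55), Syt7 (-2.07), Syt11 (-1.13), Nsf (-1.75), Cplx1 (-1.22), Cplx2 (-0.79), Rims2 (-2.12), Bsn (-1.28), Pclo (-0.15), Erc2 (-0.48), Unc13c (-0.25) and Sv2a (-0.26). The causes of these shifts were not tested. Syp, Syn1, Synpr, Syt2, Syt10, Unc13b and Doc2a in 12-month striatum and Syp at 6 months were called under all 8 alternatives. For LacQ140 against WT+IPTG in striatum the errors were widest for Slc17a7 (SE 0.535 and 0.663) and Slc17a6 (0.362 and 0.638).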
